A study of Mus musculus with 6 samples.

Results

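The major histocompatibility complex (MHC) and antigen processing genes of MC3T3-e1 cells, an osteoblastic line from mouse calvaria, were compared between wild-type (WT) and Tmem161a-KO cells. The set held every array row whose gene symbol starts with H2-, together with the rows of Tap1, Tap2, Tapbp, Psmb8, Psmb9, Psmb10, B2m, Ciita and Erap1. It came to 44 rows, 35 with H2- symbols and 9 without, of 19571 rows with 1 gene symbol. Rows of Nlrc5 and Cd74, also in the rule, were not analysed here. In all, 40 of the 44 lie on chromosome 17 by their row ids, and 4 lie elsewhere, namely B2m on chromosome 2, Psmb10 on chromosome 8, Erap1 on chromosome 13 and Ciita on chromosome 16.

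Transcript levels were measured on Clariom S mouse arrays, 3 from WT cells and 3 from Tmem161a-KO cells, to see how loss of the transmembrane protein Tmem161a changed gene expression in osteoblastic cells. The knockout carried small deletions in Tmem161a made with CRISPR/Cas9 and came from 1 line isolated by limiting dilution, so an effect of the gene and a property of that line cannot be told apart. MC3T3-e1 cells were kept in alpha-MEM with fetal bovine serum, but the sources used here do not say which medium or day of culture the arrays' RNA came from, and name no treatment for either group. They also do not say whether the 3 arrays of a group came from separate cultures, so p-values measure only the spread between these arrays, which may be technical.

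MHC class I molecules are heavy chains paired with beta-2 microglobulin that carry peptides from inside the cell to its surface, where CD8 T cells and natural killer cells read them. The peptides are cut by the proteasome, or by the immunoproteasome after exposure to interferon, carried into the endoplasmic reticulum by the TAP transporter, trimmed by Erap1 and loaded onto class I with the help of tapasin, the product of Tapbp. MHC class II molecules carry peptides from endosomes to CD4 T cells, and are loaded there with the help of H2-DM. Class I is found on most cells, osteoblasts included, whereas class II is mostly made by dendritic cells, macrophages and B cells. Most of these genes lie together in 1 segment of mouse chromosome 17.

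The promoters of both higher genes and of Tapbp, H2-T23, H2-K1, Tap1 and Psmb9, from the loading, class I and peptide steps, are shown because MHC promoters are known to carry an X2 box and a Y box, and interferon-responsive genes carry ISRE or GAS elements. Each is the 250 bases before the RefSeq start on GRCm38.p6, read 5′ to 3′ on the gene's own strand. The windows were chr17:34152941-34153190 (+) for H2-DMb1, chr17:34144999-34145248 (+) for H2-DMb2, chr17:33919228-33919477 (+) for Tapbp, chr17:36032702-36032951 (-) for H2-T23 and chr17:34000348-34000597 (-) for H2-K1. Tap1 and Psmb9 start head to head, and the 225 bases between both starts, chr17:34187331-34187555, are given on the + strand. Capitals mark letters that match a motif on either strand: ATTGG, the core of the Y box; TGACG, a part of the X2 box; GAAA repeated after 2 free bases, an ISRE core; or TTCNNNGAA, a GAS core.
H2-DMb1: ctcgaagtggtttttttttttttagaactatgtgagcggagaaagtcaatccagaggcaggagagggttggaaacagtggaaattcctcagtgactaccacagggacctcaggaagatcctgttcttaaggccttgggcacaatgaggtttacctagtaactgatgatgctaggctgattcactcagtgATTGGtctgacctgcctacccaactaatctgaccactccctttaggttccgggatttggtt
H2-DMb2: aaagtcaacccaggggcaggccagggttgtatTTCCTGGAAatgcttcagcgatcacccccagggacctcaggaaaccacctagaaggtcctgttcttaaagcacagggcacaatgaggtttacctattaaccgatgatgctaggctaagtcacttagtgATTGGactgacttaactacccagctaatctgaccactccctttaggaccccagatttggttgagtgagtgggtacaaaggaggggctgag
Tapbp: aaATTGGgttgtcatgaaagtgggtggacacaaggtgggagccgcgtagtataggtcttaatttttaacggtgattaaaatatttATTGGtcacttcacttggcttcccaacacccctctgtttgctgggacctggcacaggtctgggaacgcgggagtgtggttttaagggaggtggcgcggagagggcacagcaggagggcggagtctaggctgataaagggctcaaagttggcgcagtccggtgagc
H2-T23: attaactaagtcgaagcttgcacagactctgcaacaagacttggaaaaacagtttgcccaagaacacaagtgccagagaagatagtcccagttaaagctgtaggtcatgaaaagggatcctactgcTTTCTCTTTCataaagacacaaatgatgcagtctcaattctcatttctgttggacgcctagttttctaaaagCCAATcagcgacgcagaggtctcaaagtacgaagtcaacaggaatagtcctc
H2-K1: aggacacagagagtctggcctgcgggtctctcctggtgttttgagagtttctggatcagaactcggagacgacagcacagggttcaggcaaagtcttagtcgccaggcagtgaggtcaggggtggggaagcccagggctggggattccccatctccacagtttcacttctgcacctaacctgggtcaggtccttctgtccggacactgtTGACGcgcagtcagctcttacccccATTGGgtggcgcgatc
Tap1 and Psmb9: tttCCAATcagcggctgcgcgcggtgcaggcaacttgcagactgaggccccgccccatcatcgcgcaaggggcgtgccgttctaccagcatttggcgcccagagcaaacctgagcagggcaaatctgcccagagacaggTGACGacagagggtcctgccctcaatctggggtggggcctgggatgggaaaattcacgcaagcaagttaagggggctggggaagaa

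Each of these 6 stretches held ATTGG, and Tapbp held it at 2 places. TGACG was found in H2-K1 and between Tap1 and Psmb9, the ISRE core in H2-T23 and the GAS core in H2-DMb2. No overlap between motif matches occurred in these stretches. Of the 36 genes of the set with a RefSeq promoter window, which runs to 50 bases after the start, 29 (80.6%) held ATTGG, against 33.8% of all 32851 windows. TGACG was in 13 (36.1%) against 17.8%, the ISRE core in 3 (8.33%) against 2.98%, and the GAS core in 4 (11.1%) against 7.02%. A match is a string of letters and says nothing about binding. H2-DMb1 and H2-DMb2 are duplicated neighbours, and their promoters were alike at 174 of 209 aligned positions (83.3%).

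Levels are given as the normalized intensity of each array, not logged, and fold changes are Tmem161a-KO minus WT on the log2 scale from limma, with p-values adjusted over all 19571 named rows and a call at an adjusted p under 0.05. The number of arrays limits the precision, and exact permutation over 3 against 3 arrays cannot go below p = 0.1, the value that each of the 11 called rows reached. As a gauge of background, 1091 olfactory receptor rows, which osteoblastic cells should not use, had a 95th percentile of intensity 100. Array medians lay between 214 and 215 in WT and between 204 and 208 in Tmem161a-KO cells. Lower quartiles were 65.4 to 66.3 in WT and 62 to 64.1 in Tmem161a-KO arrays, but upper quartiles were 1380 to 1390 and 1440 to 1450. Tmem161a itself was 1148 ± 84.3 (SD, n = 3) in WT and 967 ± 32.7 (SD, n = 3) in Tmem161a-KO arrays, with log2 -0.25 (SE 0.11, limma adjusted p = 0.192), and where its probes lie relative to the deletions was not tested. Of 9 osteoblast and mesenchymal markers measured, 8 had a brighter group above the background gauge, the exception being Alpl, whereas macrophage and dendritic cell markers passed it in 1 of 10, B cell markers in 1 of 4, T and NK cell markers in 1 of 4 and endothelial markers in 0 of 4.

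Most genes of the set that changed were lower in Tmem161a-KO cells, and both that were higher encode the beta chain of H2-DM. Of the 44 rows, 9 passed the test as lower, 2 as higher and 33 in neither direction, where 4.17% of all named rows were lower and 5.73% were higher. The lower rows were H2-T23, Tapbp, Tap2, Psmb10, H2-T10, Psmb9, H2-Ob, H2-K1 and Erap1, and the higher rows were H2-DMb1 and H2-DMb2. In 13 rows all Tmem161a-KO arrays lay below all WT arrays, and in 2 rows above, where 14.4% and 14.5% of all named rows did so. The median log2 fold change was -0.18, with 36 of 44 rows below 0, and that of all named rows was -0.01. RNA was extracted from whole cultures, so fewer cells of a kind and less RNA per cell cannot be told apart.

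**Figure D1:**
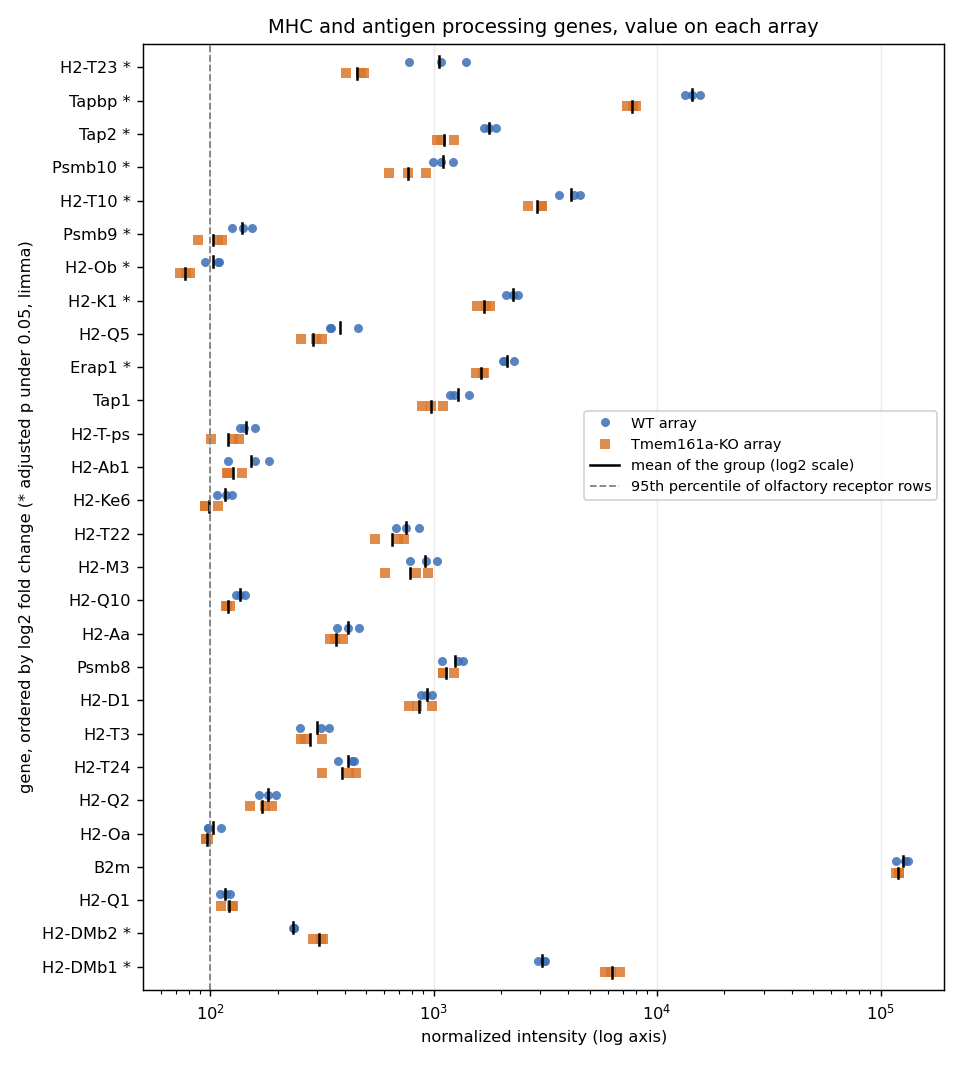
Normalized intensity (log axis) on each WT (circles) and Tmem161a-KO (squares) array for the 28 genes of the set whose brighter group lay above the 95th percentile of the olfactory receptor rows (dashed line), with group means on the log2 scale as bars and asterisks at limma adjusted p under 0.05. From H2-T23 at the top, log2 -1.21, to H2-DMb1 at the bottom, log2 1.04, the Tmem161a-KO squares move from the left to the right of the WT circles.

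Of 4 genes that carry and load class I peptides, Tapbp and Tap2 were lower in Tmem161a-KO cells, where 4.17% of all named rows were lower. The other genes of this group, Tap1 and B2m, did not pass the test. Tapbp encodes tapasin, which holds empty class I molecules at the TAP transporter. Its intensity was 15573, 13340 and 14384 in WT arrays and 7789, 8042 and 7316 in Tmem161a-KO arrays. Every Tmem161a-KO array was far below every WT array. The WT level was 1.87-fold the Tmem161a-KO level (log2 -0.90, SE 0.11, limma adjusted p = 8.61e-05).

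Tap1 and Tap2 encode the paired subunits of the peptide transporter. Tap2 was 1764, 1897 and 1675 in WT arrays and 1077, 1232 and 1034 in Tmem161a-KO arrays, with no overlap between the groups. It was lower by log2 -0.68 (SE 0.12, limma adjusted p = 0.00127). Its partner Tap1 was also below WT on every Tmem161a-KO array, with 1183, 1438 and 1230 in WT and 969, 1096 and 882 in Tmem161a-KO cells, but at log2 -0.39 (SE 0.12, limma adjusted p = 0.0644) it did not pass the test. Without Tmem161a-KO array 2, Tap1 passed it (log2 -0.47, adjusted p = 0.0444), and with quantile normalization as well (log2 -0.45, adjusted p = 0.0334). Tap1 did not pass it when any other single array was left out (limma adjusted p from 0.0848 to 0.228). Nor did it with arrays centred on their median (log2 -0.33, limma adjusted p = 0.107) or on other chromosome 17 rows (log2 -0.24, limma adjusted p = 0.27). Tapbp and Tap2 stayed lower when any 1 array was left out.

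B2m, the invariant light chain of class I, was 128791, 116770 and 132687 in WT arrays and 121086, 120621 and 117769 in Tmem161a-KO arrays. The groups overlapped, and the difference of log2 -0.07 (SE 0.11, limma adjusted p = 0.749) was within their spread.

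Of 4 genes of peptide production, 3 were called lower, where 4.17% of all named rows were. The immunoproteasome swaps 3 catalytic subunits of the standard proteasome for Psmb8, Psmb9 and Psmb10. Psmb10 was 1080, 1220 and 996 in WT arrays and 919, 631 and 766 in Tmem161a-KO arrays. The groups did not overlap, and the difference was log2 -0.52 (SE 0.14, limma adjusted p = 0.0283). Psmb9, close to background, was 154, 140 and 125 in WT arrays and 87.9, 108 and 113 in Tmem161a-KO arrays. Its groups also stood apart, at log2 -0.44 (SE 0.13, limma adjusted p = 0.0432). Psmb8 did not share this pattern. It was 1288, 1354 and 1092 in WT arrays and 1232, 1097 and 1095 in Tmem161a-KO arrays, which overlapped (log2 -0.12, SE 0.12, limma adjusted p = 0.589).

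Erap1, the aminopeptidase that trims peptides in the endoplasmic reticulum, was 2281, 2052 and 2067 in WT arrays and 1673, 1661 and 1549 in Tmem161a-KO arrays. All Tmem161a-KO arrays were below WT, by log2 -0.39 (SE 0.11, limma adjusted p = 0.0374). These 3 calls were near the threshold, and that of Psmb9 was lost with quantile normalization (log2 -0.34, limma adjusted p = 0.124). That of Erap1 was lost when any 1 of the 6 arrays was left out (adjusted p from 0.0644 to 0.143), that of Psmb10 without WT array 1 or 2 or Tmem161a-KO array 2 or 3 (0.0733 to 0.121), and that of Psmb9 without WT array 1 or 2 or Tmem161a-KO array 1 or 2 (0.0599 to 0.175).

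Among classical class I heavy chains, which present peptides to CD8 T cells, H2-K1 was lower and H2-D1 did not pass the test. H2-K1 was 2114, 2263 and 2387 in WT arrays and 1568, 1778 and 1721 in Tmem161a-KO arrays. Each Tmem161a-KO array was below each WT array, by log2 -0.42 (SE 0.11, limma adjusted p = 0.0293), though the call held only without Tmem161a-KO array 2 and was lost without any other array (adjusted p from 0.0501 to 0.111). H2-D1 was 978, 881 and 926 in WT arrays and 839, 983 and 772 in Tmem161a-KO arrays. One Tmem161a-KO array was the brightest of the 6, and the difference was log2 -0.11 (SE 0.12, limma adjusted p = 0.631). Heavy chain genes are near copies of each other and the probe sequences were not used here, so the sharing of signal between them is uncertain.

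The lowest fold change of the set was in H2-T23, which encodes Qa-1, a non-classical molecule that shows a class I leader peptide to the inhibitory receptor CD94/NKG2A on natural killer cells. Its intensity was 775, 1395 and 1074 in WT arrays and 406, 487 and 475 in Tmem161a-KO arrays. The WT arrays spread widely, yet the dimmest of them was above all Tmem161a-KO arrays. WT was 2.31-fold Tmem161a-KO (log2 -1.21, SE 0.17, limma adjusted p = 0.00023), and the call held with any 1 array left out.

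H2-T10, with H2-T22 a ligand of some gamma delta T cell receptors, was 4528, 4263 and 3638 in WT arrays and 3062, 3045 and 2629 in Tmem161a-KO arrays. The groups did not overlap (log2 -0.51, SE 0.12, limma adjusted p = 0.0158), but without WT array 1 or 2 or Tmem161a-KO array 3 the adjusted p was from 0.063 to 0.0793. H2-T22 was 858, 675 and 748 in WT arrays and 736, 547 and 695 in Tmem161a-KO arrays, overlapping, at log2 -0.21 (adjusted p = 0.372). The other T region rows above background did not pass the test, with log2 -0.09 for H2-T24, -0.11 for H2-T3 and -0.28 for the pseudogene H2-T-ps.

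None of the 5 Q region rows passed the test by limma, though limma and the methods' t-test each had 1 lower and 0 higher before adjustment (p under 0.05). The lower row was H2-Q5 in limma and H2-Q10 in the other test, so no row was shared. H2-Q5 was 458, 347 and 343 in WT arrays and 255, 317 and 297 in Tmem161a-KO arrays, without overlap, at log2 -0.39 (SE 0.14, limma adjusted p = 0.0842). H2-Q10, in mice a secreted class I molecule made by the liver, lay just above background and was also below WT on every Tmem161a-KO array (log2 -0.19, adjusted p = 0.303). H2-Q2 and H2-Q1 had log2 -0.08 and 0.06. Of 11 M region rows 0 passed by limma (before adjustment, 1 did in limma and 0 in the methods' t-test), and only H2-M3, which presents formylated peptides of bacteria and mitochondria, was above background, with 781, 1031 and 927 in WT arrays and 836, 605 and 947 in Tmem161a-KO arrays (log2 -0.21, adjusted p = 0.442). H2-Ke6, named for its place in the MHC, encodes a dehydrogenase and not an MHC molecule, and it had log2 -0.23 (adjusted p = 0.237).

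Of the class II genes, H2-DMb1 had the largest fold change, and H2-DMb2 and H2-Ob were the others called. H2-DM is a pair of one alpha chain, from H2-DMa, and one beta chain, from H2-DMb1 or H2-DMb2, and it exchanges the invariant chain fragment in the class II groove for other peptides. H2-DMb1 was 3100, 2937 and 3151 in WT arrays and 6211, 5868 and 6831 in Tmem161a-KO arrays. All Tmem161a-KO arrays were far above WT, 2.05-fold on average (log2 1.04, SE 0.11, limma adjusted p = 2.2e-05), and the call held without any 1 array. The promoters of H2-DMb1 and its copy are those printed above.

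H2-DMb2 was 235, 236 and 236 in WT arrays and 289, 314 and 318 in Tmem161a-KO arrays. The groups did not overlap, the rise was 1.3-fold (log2 0.38, SE 0.11, limma adjusted p = 0.039), and the call was lost when any 1 of the 6 arrays was left out (adjusted p from 0.0561 to 0.107). Because the genes are near copies, how far the H2-DMb2 row reads H2-DMb1 transcripts was not tested. The alpha chain gene H2-DMa was not above background, with 88.8, 60.4 and 75 in WT arrays and 82.9, 72.5 and 80 in Tmem161a-KO arrays (log2 0.09, adjusted p = 0.763).

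H2-DO, made from H2-Oa and H2-Ob, restrains H2-DM. H2-Ob was 94.3, 108 and 109 in WT arrays and 77.6, 72.9 and 81.5 in Tmem161a-KO arrays. It passed the test as lower (log2 -0.42, SE 0.12, limma adjusted p = 0.0289), but its Tmem161a-KO level was within the range of the olfactory receptor rows, and the call was lost without WT array 2 or 3 or Tmem161a-KO array 1 or 2 (adjusted p from 0.0735 to 0.103). With quantile normalization the H2-Ob call was lost as well (log2 -0.34, limma adjusted p = 0.0939). H2-Oa was at a like distance from background, at log2 -0.08 (adjusted p = 0.699).

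None of the 4 rows of classical class II molecules passed the test, and before adjustment limma and the methods' t-test each had 0 under the same threshold. The alpha chain row H2-Aa was above background, with 415, 368 and 462 in WT arrays and 360, 392 and 345 in Tmem161a-KO arrays, overlapping (log2 -0.18, SE 0.12, limma adjusted p = 0.396). The beta chain row H2-Ab1 was 159, 183 and 120 in WT arrays and 139, 119 and 120 in Tmem161a-KO arrays (log2 -0.27, SE 0.15, limma adjusted p = 0.273). H2-Eb1 and H2-Eb2 stayed at background in most arrays, at log2 -0.19 and -0.27. Ciita, the coactivator that switches class II genes on, was at background too, with 103, 81 and 80.1 in WT arrays and 80.2, 85.8 and 75.3 in Tmem161a-KO arrays (log2 -0.12, SE 0.13, limma adjusted p = 0.605).

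In all, 16 rows of the set had neither group mean above the background gauge, and 0 of them were called. Their log2 fold changes ran from -0.28 for H2-M10.2 to 0.19 for H2-M10.1, with a median of -0.12, and WT and Tmem161a-KO arrays overlapped in every one. All 6657 named rows this dim had a median of -0.05, with 62.9% below 0. Of these, 23 were higher and 70 lower, so calls were rarer there than among brighter rows. The absence of a call does not show that these genes of the set did not change.

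Chromosome 17 as a whole was lower on the Tmem161a-KO arrays, and the median of the MHC rows was close to that of the rest of the chromosome. The 40 rows of the set on chromosome 17 had a median log2 fold change of -0.18, 32 (80%) were below 0, 7 were lower and 2 were higher. The 923 other chromosome 17 rows had a median of -0.13, and 78.7% were below 0. Of these, 8.13% were lower and 1.08% higher, and the groups stood apart in 28.7% (below WT) and 3.03% (above WT), where 11 and 2 of the 40 did so. Among rows with a mean above the background gauge, 6 of 23 rows of the set were lower and 2 higher, against 11.5% and 1.62% of the 618 other chromosome 17 rows. The counts are small, and no set test was made.

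Among rows brighter than the median row (intensity 236), the 16 rows of the set on chromosome 17 had a median of -0.21, and the 486 other chromosome 17 rows had a median of -0.18 with quartiles of -0.33 and -0.05. The 9510 such rows outside chromosome 17 and outside the set had a median of 0.07 with quartiles of -0.11 and 0.24. Of the 16, H2-T23, Tapbp, Tap2, H2-T10, H2-K1, Tap1 and H2-Q5 lay below the lower quartile of the other chromosome 17 rows, and H2-DMb1 and H2-DMb2 lay above their upper quartile. The set's 4 rows on other chromosomes, at any brightness, had a median of -0.26, with Psmb10 and Erap1 lower and B2m and Ciita not called. Without Ciita, which was at background, the 3 brighter than the median row had a median of -0.39.

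**Figure D2:**
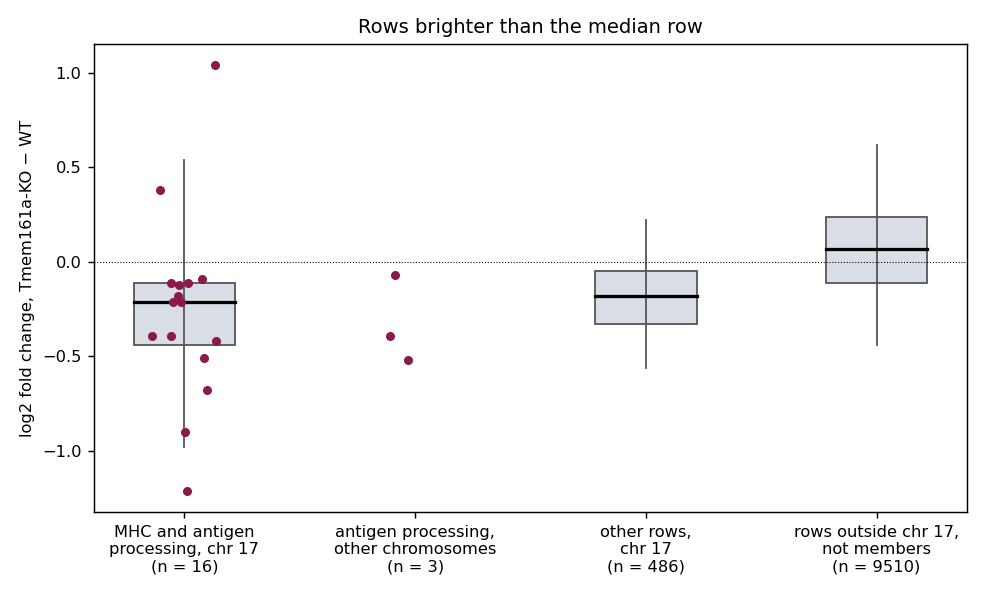
Log2 fold change of rows brighter than the median row in at least 1 group, with boxes from the 25th to the 75th percentile, a bar at the median and lines from the 5th to the 95th percentile, and each gene of the set as a point. The 16 chromosome 17 genes of the set have a median of -0.21 and the other 486 chromosome 17 rows -0.18, both below the 0.07 of rows outside chromosome 17.

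The segment from Tapbp to H2-M3, in RefSeq order, held 167 tested rows, of which 127 were not of the set. Of those 127, 10 (7.87%) were lower and 0 higher by limma (before adjustment, 2 were higher in each of limma and the methods' t-test), with a median of -0.15. The lower share was close to the 8.13% of the 923 other chromosome 17 rows, which include these 127. Of all named rows, 4.17% were lower. The 67 of them brighter than the median row had a median of -0.19 with 91% below 0, beside -0.18 for the 224 brighter chromosome 17 rows before the segment and -0.18 for the 195 after it. H2-DMb2 and H2-DMb1 thus rose between genes that did not. On the near side of H2-DMb2 lie H2-DMa, at background, and Brd2, a chromatin reader, which was 7505, 8202 and 8250 in WT arrays and 6417, 6775 and 6098 in Tmem161a-KO arrays (log2 -0.31, adjusted p = 0.0926). On the far side of H2-DMb1 lie Psmb9, Tap1, Psmb8, Tap2 and H2-Ob, at log2 -0.44, -0.39, -0.12, -0.68 and -0.42.

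**Figure D3:**
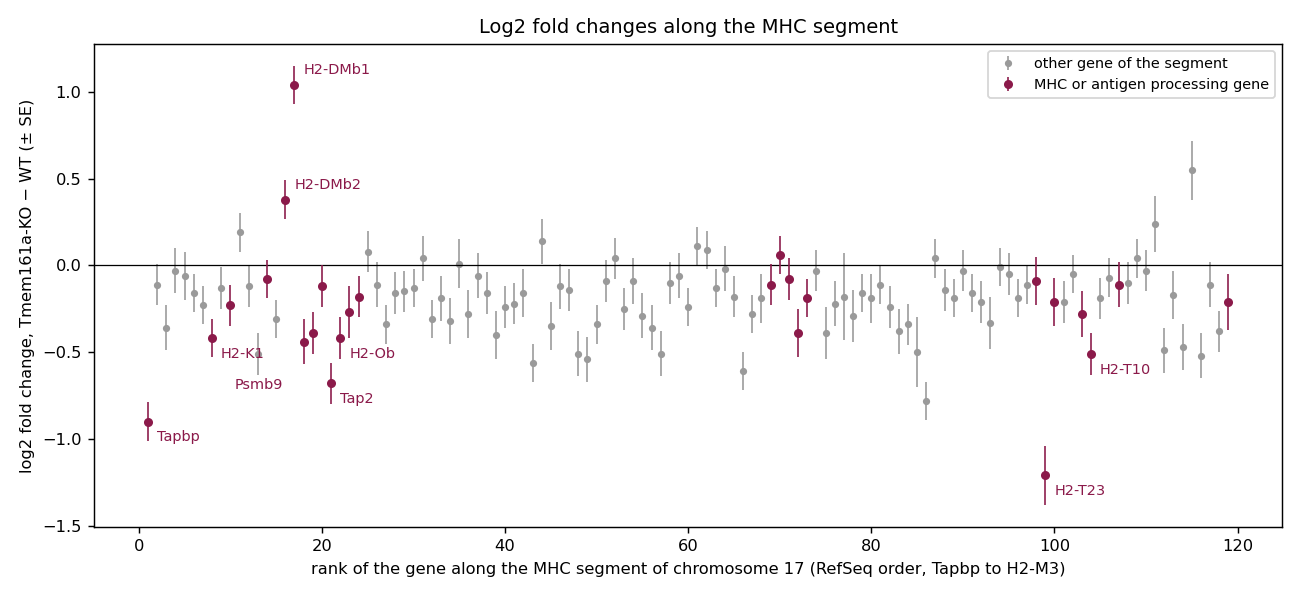
Log2 fold change (± SE) of genes above the background gauge by their rank along the MHC segment of chromosome 17, with genes of the set in dark red and other genes in grey. Most points of both kinds lie below 0, the called H2-DMb1 (1.04) and H2-DMb2 (0.38) stand above 0, as does an uncalled grey gene at 0.55, and H2-T23 (-1.21), Tapbp (-0.90), Flot1 (-0.78, unlabelled, grey) and Tap2 (-0.68) lie lowest.

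When each array was centred on the 478 chromosome 17 rows outside the set whose mean over the 6 arrays was above the median row, which moved the median of all rows by 0.14 on the log2 scale, H2-DMb1 (log2 1.18), H2-DMb2 (0.52), H2-T23 (-1.07), Tapbp (-0.76) and Tap2 (-0.54) were still called. The other 6 were not, at log2 -0.25 (adjusted p = 0.196) for Erap1, -0.27 (0.148) for H2-K1, -0.28 (0.138) for H2-Ob, -0.36 (0.083) for H2-T10, -0.38 (0.0944) for Psmb10 and -0.30 (0.156) for Psmb9, and B2m had log2 0.07. Erap1, Psmb10 and B2m lie on other chromosomes, so for them the reference came from a chromosome not their own. Brighter rows outside chromosome 17 and outside the set had a median of 0.07 as reported. Calls over all named rows were higher in 57.9% as reported, in 72.5% after median centring of the arrays and in 86.4% with centring on chromosome 17 rows. On chromosome 17 the set's split of 2 higher and 7 lower became 2 and 4, and 2 and 3.

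**Figure D4:**
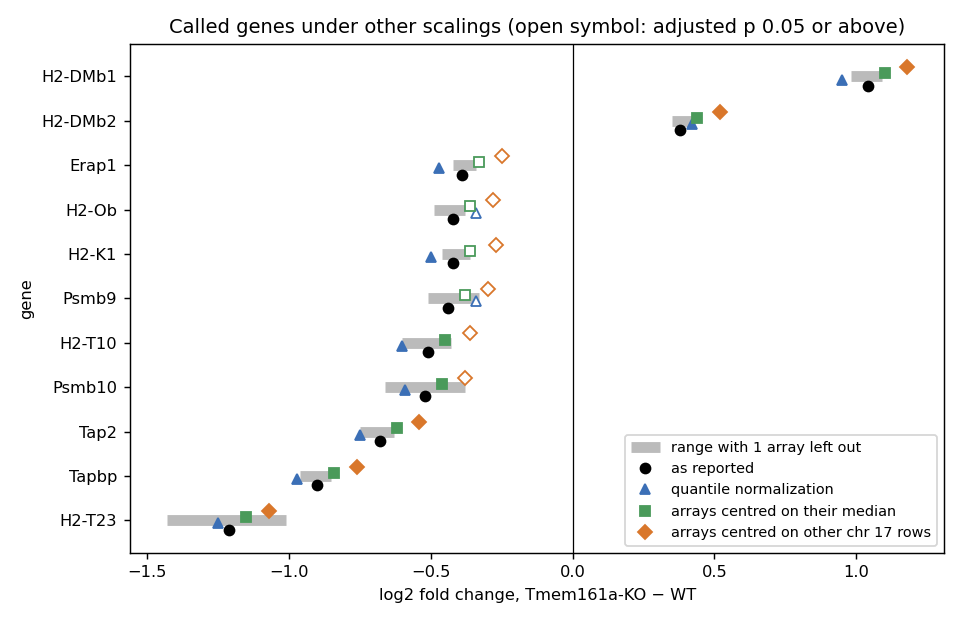
Log2 fold changes of the 11 called genes as reported (circles), after quantile normalization (triangles), with arrays centred on their median (squares) or on other chromosome 17 rows (diamonds), and the range with 1 array left out (grey bars), open symbols standing for a limma adjusted p of 0.05 or above. All symbols keep the reported direction, while only H2-DMb1, H2-DMb2, Tap2, Tapbp and H2-T23 are filled in all settings shown.

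Few of the genes that work with this machinery passed the test, where 4.17% of all named rows were lower and 5.73% higher. At those shares, lists this short would hold few calls. Of 11 genes of peptide loading and quality control in the endoplasmic reticulum, 0 were called by limma (at an unadjusted p under 0.05, 0 higher and 1 lower by limma, 0 by the methods' t-test), with a median of 0.01. The chaperones Calr and Canx and the oxidoreductase Pdia3, all parts of the class I loading complex or its feeders, had log2 -0.04, -0.09 and -0.09. Tapbpl, a relative of tapasin that edits class I peptides, was 755, 916 and 743 in WT arrays and 625, 569 and 721 in Tmem161a-KO arrays, without overlap but not called (log2 -0.33, adjusted p = 0.12). Of 19 measured genes of the constitutive proteasome and its regulators, 0 were called by limma (before adjustment, 1 was higher and 1 lower in limma and 3 and 4 in the methods' t-test), with a median of 0.11. Psmb6 and Psmb7, the standard subunits that Psmb9 and Psmb10 replace, had log2 0.11 and 0.15. Of 6 measured peptidases, 1 was higher and 0 lower, where 5.73% and 4.17% of all named rows were so called. It was Lap3, a leucine aminopeptidase, from 8423, 8355 and 8641 in WT to 11809, 10814 and 10904 in Tmem161a-KO arrays (log2 0.40, adjusted p = 0.0301).

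Genes between interferon-gamma and the MHC were called lower in 2 of 18 measured and higher in 0, beside 4.17% lower and 5.73% higher of all named rows (before adjustment, 2 were higher in limma and 3 in the methods' t-test), with a median of -0.16. Gbp2, an interferon-induced GTPase, was 720, 627 and 615 in WT arrays and 416, 315 and 355 in Tmem161a-KO arrays, with every Tmem161a-KO array below WT (log2 -0.86, SE 0.13, limma adjusted p = 0.000366). Socs3, an inhibitor of cytokine signalling, was 2294, 2067 and 1810 in WT arrays and 1423, 1296 and 1140 in Tmem161a-KO arrays, again without overlap (log2 -0.68, SE 0.13, limma adjusted p = 0.00268). Irf1, a transcription factor that binds ISRE elements, was not called, with log2 -0.27 (adjusted p = 0.215). Of 14 measured genes of the MHC enhanceosome and its cofactors, the factors that sit on X and Y boxes, 0 were called by limma (before adjustment, limma and the methods' t-test each had 1 higher and 1 lower), with a median of 0.03. Rfx5, a subunit of the X box factor, had log2 -0.27 (adjusted p = 0.223).

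Markers of the cells that make most class II were near background. Of 10 macrophage and dendritic cell markers only Cd14, a lipopolysaccharide co-receptor, was above it, and it was lower in Tmem161a-KO cells, from 406, 385 and 361 to 323, 255 and 270 (log2 -0.45, adjusted p = 0.0294). Cd14, the brightest of these 10, had a mean of 384 in WT and 283 in Tmem161a-KO arrays. The summed intensity of the 10, Cd14 included, was between 915 and 1011 in WT and between 808 and 844 in Tmem161a-KO arrays. That of 4 B cell markers was between 321 and 378 in WT and between 307 and 365 in Tmem161a-KO arrays. In both lists all but 1 marker were at background, and the part of such cells in the changes of the MHC rows was not tested.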

How the data were processed

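RNA of 3 WT and 3 Tmem161a-KO MC3T3-e1 samples was hybridized to Clariom S mouse arrays, with 1 colour. In GeneSpring the authors normalized the intensities, which were deposited unlogged, with no normalization method, background correction or genome build given in the sources used here. Of 22205 rows, 2634 without a gene symbol were left out. The log2 intensities, with no pseudocount and no filter on low values, were fitted with limma 3.58.1 in R 4.3.3 (lmFit on both group means, eBayes, two-sided), and Benjamini-Hochberg adjustment ran over all 19571 named rows. The fit was tested on simulated data. Groups came from the labels. The array number as a block, quantile normalization, median and chromosome 17 centring, array weights, a filter on dim rows, unnamed rows kept in, trend and robust settings, the methods' t-test, a stricter threshold and leaving out each array were tried as alternatives. Rows above the background gauge were named, with each array's value for called rows and core genes. Dimmer rows are given by range, except class II and DM rows. H2-Q5, H2-Q10, H2-T22, H2-M3, H2-DMa, Tapbpl, Brd2 and Cd14 values by array, and Rfx5 and Irf1, were chosen after values were seen. The members and gene lists were chosen with earlier results of these data known. Promoters are RefSeq sequence of GRCm38.p6.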

Additional observations from a re-analysis of the deposited data

How the results depend on the processing

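All 11 called genes of the set kept their direction under every alternative run. With the replicate number as a block, the set had 2 higher and 7 lower rows on chromosome 17, 0 and 2 elsewhere, and 1198 and 853 over all rows; Psmb9 was lost (adjusted p = 0.057) and Tap1 gained (0.0476). Same-numbered arrays correlated at only 0.0205 to 0.0945 in their deviations, and other pairs at -0.11 to 0.0398. WT arrays 1 and 2 correlated best with their own number, and WT array 3 with Tmem161a-KO array 1 (0.0398). The labels give only a number, so whether the samples were paired cannot be told.

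Rows of the set on chromosome 17 called lower numbered 4 with median centring, 3 with chromosome 17 centring, 1 with the methods' t-test after adjustment, 3 at an adjusted p under 0.01 and 3 to 6 with 1 array left out. Those called higher numbered 1 with trend and robust settings, 1 with the adjusted t-test, 1 at 0.01 and 1 with 1 array left out. Elsewhere, lower calls numbered 1, 0, 0 and 0 with median centring, chromosome 17 centring, the adjusted t-test and 0.01, and 0 to 1 with 1 array left out. The adjusted t-test kept only Tapbp (0.045) and H2-DMb1 (0.0414). Without 1 array in turn, 4 of the 11 genes (Tapbp, Tap2, H2-T23, H2-DMb1) kept their call each time.

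The median over chromosome 17 rows of the set was -0.12 with median centring, -0.04 with chromosome 17 centring and -0.21 to -0.13 with 1 array left out. That of the brighter ones was -0.27 with quantile normalization, -0.07 with chromosome 17 centring and -0.28 to -0.22 with 1 array left out. Over all named rows, higher and lower calls were 2577 and 406 with chromosome 17 centring, 2038 and 1878 with the unadjusted and 114 and 76 with the adjusted t-test, 581 and 382 at 0.01, and 729 to 965 and 497 to 703 with 1 array left out.

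Among the 30 genes of the set recomputed under each alternative, signs turned only in uncalled ones. With chromosome 17 centring these were Ciita (0.02), H2-Oa (0.06), Psmb8 (0.02), H2-D1 (0.03), H2-Q2 (0.06), H2-T24 (0.05), H2-T3 (0.03) and B2m (0.07). H2-Oa was at 0.00 with quantile normalization, H2-Q2 ranged from -0.15 to 0.01 and H2-T24 from -0.19 to 0.06 with 1 array left out. The cause of these shifts was not tested.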

Other observations

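Of 11 measured genes of class II processing outside the MHC, 1 was lower and 1 higher, where 4.17% and 5.73% of all named rows were so called. Lgmn, an asparaginyl endopeptidase of lysosomes, was 9219, 8678 and 8644 in WT arrays and 5063, 5209 and 6198 in Tmem161a-KO arrays (log2 -0.69, SE 0.12, limma adjusted p = 0.00112). Ifi30, the lysosomal thiol reductase that opens disulfide bonds in antigens, was 9812, 8247 and 9858 in WT arrays and 15108, 12099 and 12305 in Tmem161a-KO arrays (log2 0.50, SE 0.13, limma adjusted p = 0.0206). Neither gene's groups overlapped. The median of the list was -0.17.

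Class I-like genes without the H2 prefix had 1 higher and 1 lower call of 11 measured, where 5.73% and 4.17% of all named rows were so called. Of the 11, 5 had a brighter group above the background gauge. Fcgrt, the neonatal Fc receptor heavy chain, which also pairs with beta-2 microglobulin, was 3635, 3611 and 3181 in WT arrays and 2151, 2649 and 2546 in Tmem161a-KO arrays (log2 -0.51, SE 0.12, limma adjusted p = 0.014). Procr, the protein C receptor, was 110, 88.3 and 145 in WT arrays and 209, 147 and 192 in Tmem161a-KO arrays (log2 0.69, SE 0.17, limma adjusted p = 0.0175). Its WT level was close to the background gauge, with WT array 2 below it.

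Of 74 measured genes listed as in or near the MHC segment and doing other work, 8 (10.8%) were lower and 0 higher by limma (1 higher at an unadjusted p under 0.05, 2 by the methods' t-test). That share was close to the 8.13% of all other chromosome 17 rows and the 11.5% of those above the background gauge. The list held Daxx and Zbtb22, outside the stretch from Tapbp to H2-M3. It left out genes called lower inside that stretch, among them Ly6g6d (log2 -0.51) and Znrd1as (log2 -0.47). Flot1, a scaffold of membrane rafts, had the lowest fold change, from 8100, 7798 and 8571 in WT to 4858, 4756 and 4670 in Tmem161a-KO arrays (log2 -0.78, SE 0.11, limma adjusted p = 0.000224). Lta, the cytokine lymphotoxin alpha, was 727, 624 and 646 in WT arrays and 421, 444 and 440 in Tmem161a-KO arrays (log2 -0.61). Nelfe, a subunit of the negative elongation factor, was 4220, 4278 and 4292 in WT arrays and 2885, 3073 and 2704 in Tmem161a-KO arrays (log2 -0.56). In all 3 genes every Tmem161a-KO array was below every WT array.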
